A study of Mus musculus with 3 samples.

Results

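The immediate early genes described here are 10 genes of the EGR, NR4A and IER groups with Dusp1 and Zfp36, a set that leaves out the AP-1 genes. They were taken by gene symbol (Egr1, Egr2, Egr3, Nr4a1, Nr4a2, Ier2, Ier3, Ier5, Dusp1 and Zfp36), and all 10 were found among the 24421 genes with read counts. The filter on low counts, a mean of 10 reads or more, was passed by all 10 members and by 16670 of all genes. All 10 also reached a mean of 100 reads.

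Expression was measured by RNA-Seq of total RNA in EL16.7, a female mouse ES cell line of F2 origin (129S1/CastEiJx 129S1). The study depleted the nuclear pore protein NUP153 with lentiviral shRNAs and asked how transcription changes. There were 3 libraries, and each was made from cells with another shRNA: a scrambled control shRNA (control), NUP153 shRNA-1 (NUP153 KD-1) and NUP153 shRNA-2 (NUP153 KD-2). Selection was with puromycin (2 μg/ml, 2 days) in all 3 cultures, and all were grown with LIF on γ-irradiated embryonic fibroblasts of Tg(DR4)1Jae/J mice, so that RNA of these feeder cells can be in each library. Each shRNA has 1 library. There is thus no replicate check of any fold change, and each fold change compares libraries and not conditions. In bulk RNA, fewer cells of a type and less RNA per cell cannot be told apart.

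Immediate early genes are transcribed within minutes of a signal, without new protein synthesis, when ERK and other kinases act on SRF with its ELK partners and on CREB at their promoters. Their mRNAs are mostly short-lived, and several of their products limit the response: dual specificity phosphatases switch off the kinases, ZFP36 binds AU-rich elements in 3′ UTRs and promotes decay of the mRNA, and NAB proteins repress through EGR factors. In mouse ES cells, FGF signalling through ERK keeps genes of this kind active and prepares the cells for differentiation.

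The sequences that this regulation is known to use are shown for members in which they were found. In the RefSeq promoters (GRCm38.p6), which had entries for 7 of the 10 members (not Egr1, Egr3 and Ier2), the 250 bases upstream of each start site were searched for the CArG box bound by SRF, for the full CREB element TGACGTCA, for its core TGACG on both strands, which the full element also contains, and for TATAA on the sense strand in the last 50 bases. Capitals mark these matches. The Dusp1 window (chr17:26508473-26508722 on the minus strand) carries the full CREB element from base 143 upstream of the start. The Zfp36 window (chr7:28379229-28379478 on the minus strand) and the Egr2 window (chr10:67537619-67537868 on the plus strand) carry CArG boxes from bases 58 and 72 upstream. The Ier5 window (chr1:155099637-155099886 on the minus strand) carries TATAA from base 26 upstream.
Dusp1: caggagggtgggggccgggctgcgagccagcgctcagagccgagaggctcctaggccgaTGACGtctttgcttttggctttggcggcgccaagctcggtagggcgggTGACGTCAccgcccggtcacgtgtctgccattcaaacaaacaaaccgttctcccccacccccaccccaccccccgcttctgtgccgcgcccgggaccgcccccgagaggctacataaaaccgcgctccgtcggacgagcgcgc
Zfp36: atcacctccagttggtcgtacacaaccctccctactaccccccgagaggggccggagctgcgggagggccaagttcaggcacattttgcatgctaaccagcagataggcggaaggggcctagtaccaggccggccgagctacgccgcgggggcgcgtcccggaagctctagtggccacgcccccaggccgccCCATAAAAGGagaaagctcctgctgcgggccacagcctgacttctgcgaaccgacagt
Egr2: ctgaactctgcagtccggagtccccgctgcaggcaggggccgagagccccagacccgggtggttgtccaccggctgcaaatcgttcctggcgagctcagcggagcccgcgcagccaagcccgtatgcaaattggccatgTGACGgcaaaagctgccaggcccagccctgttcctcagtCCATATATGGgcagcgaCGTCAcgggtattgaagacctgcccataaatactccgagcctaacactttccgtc
Ier5: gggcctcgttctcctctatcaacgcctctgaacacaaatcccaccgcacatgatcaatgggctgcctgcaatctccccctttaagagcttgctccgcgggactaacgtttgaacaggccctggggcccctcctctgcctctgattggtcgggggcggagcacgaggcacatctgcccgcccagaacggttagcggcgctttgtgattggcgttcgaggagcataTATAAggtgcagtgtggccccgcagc

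A CArG box was found for 2 of the 7 members (Egr2 and Zfp36) and for 1.46% of the 12286 genes with such a promoter. The full CREB element was found for 1 member (Dusp1) and for 2.82% of genes, its core for 4 members (Egr2, Nr4a1, Nr4a2 and Dusp1) and 28.1% of genes, and TATAA near the start for 2 members (Egr2, at another of its start sites, and Ier5) and 4.02% of genes. A match describes the letters of the window and is no measured binding site.

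The AU-rich heptamer TATTTAT, which lies within the element that ZFP36 is known to bind, was searched in the sense strand of the 3′ UTRs of GENCODE transcripts. It was found in 4 of the 10 members (40.0%) and in 27.1% of 14777 genes. Per kilobase of 3′ UTR, the members had 0.924 matches and all genes 0.295. Ier3 had 4 matches, Dusp1 and Zfp36 had 3 each, and Nr4a2 had 1. For each of these, 1 site is shown with the heptamer in capitals, beginning at base 575 of the 3′ UTR for Zfp36, 182 for Ier3, 104 for Dusp1 and 594 for Nr4a2.
Zfp36: gggcccttTATTTATgacgactt
Ier3: ctaattaaTATTTATgtatttat
Dusp1: ctggtcctTATTTATttaacacc
Nr4a2: tttgtgccTATTTATgaataaat

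The libraries held between 69839336 (KD-2) and 85258834 (KD-1) reads on genes. Nup153 itself was at 0.504 of the control level in KD-1 and, with shRNA-2, at 0.371. The 12 ES cell markers were detected in each library, with summed levels of 1.09 times the control level in KD-1 and 0.730 times in KD-2. By gene, 9 of 12 were above control in KD-1, against 53.1% of all genes, and 3 of 12 in KD-2, against 48.3%. Past 1.5-fold were Utf1, which was higher (0.69 in KD-1 and 1.17 in KD-2 on the log2 scale), and 3 genes that were lower in KD-2, Zfp42 (-0.70) and Dppa4 (-0.67) the farthest from control. The 16 fibroblast markers, with Col3a1 the highest, were also detected in each library, none at 0 reads. Their summed levels in scaled CPM were 1550 in the control library, 790 in the KD-1 library and 2964 in the KD-2 library. All 16 were below control in KD-1, as were 7817 of all 16670 genes. All 16 were above control in KD-2, against 48.3% of all genes. Their medians were -0.71 in KD-1 and 0.78 in KD-2 on the log2 scale. Postn (-2.01), Lum (-1.44) and Col1a2 (-1.35) were farthest from control in KD-1, and Loxl1 (1.87), Col5a1 (1.58) and Twist1 (1.19) in KD-2. The fibroblast markers thus stood lowest in KD-1 and highest in KD-2, and their part in the values of the immediate early genes was not tested.

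Levels are given as RPKM, the upper-quartile scaled CPM (the share of reads on genes) divided by exon length, so that genes can be compared with each other. The length is that of all GENCODE exons of a gene, while gene positions are given from RefSeq, whose bounds are narrower for some members. In the control library, the median of all genes was 3.36 RPKM. Ier2 (25.6 RPKM) and Ier3 (25.1 RPKM) were the highest members, and their counting intervals overlapped. Dusp1 and Egr1 followed, then Ier5 and Nr4a1, whose intervals overlapped, then Zfp36. Nr4a2, Egr2 and Egr3 lay below 1 RPKM. The members thus spanned from 0.377 RPKM for Egr3 to the level of Ier2, and 7 of 10 lay above the median gene. In KD-1 the order was the same but for Nr4a1, which passed Ier5 and whose interval overlapped that of Egr1, and the intervals of Egr2 and Egr3 overlapped. In KD-2, Ier3 was the highest member, and Egr1 came after Ier5, Nr4a1 and Zfp36, all of which it exceeded in control, and the intervals of Egr3 and Egr2 overlapped. With the exon length inside the RefSeq bounds, an alternative chosen after seeing the data, Zfp36 moved from 3.97 to 5.64 RPKM in the control library and Egr1 from 8.53 to 12.4. In control, Zfp36 then came before Nr4a1 (5.44) with overlapping intervals and Ier3 before Ier2, and in KD-2 Zfp36 came before Nr4a1. No fold change between libraries depends on this length. Summed over the 10 members, the scaled CPM was 193 in the control library, 172 in the KD-1 library and 277 in the KD-2 library, or 0.890 and 1.43 times the control level.

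**Figure D1:**
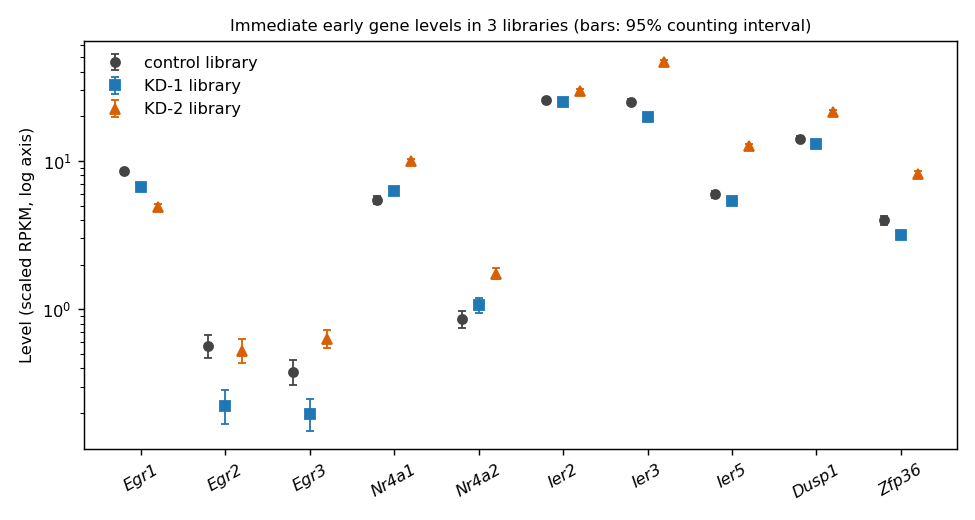
Level of each immediate early gene in the control, KD-1 and KD-2 libraries, in scaled RPKM on a log axis, with 1 point per library and bars for the exact 95% counting interval. Egr1 steps down from control (8.53) to KD-2 (4.88), while for Ier3, Ier5, Dusp1 and Zfp36 the KD-2 point lies above both others.

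The EGR genes encode zinc finger transcription factors that bind GC-rich sites. Egr1, on chromosome 18 from 34861207 to 34864956 (RefSeq, GRCm38.p6, plus strand), is the best known of them. It had 2673 control reads, 2442 KD-1 reads and 1647 KD-2 reads, or 8.53, 6.65 and 4.88 RPKM. Both knockdown libraries were below control, and KD-2 was the lowest. Against control, the log2 fold change was -0.36 for KD-1 (95% counting interval -0.44 to -0.28) and -0.81 for KD-2 (-0.90 to -0.72). In KD-2 this is a level of 0.572 times control, and 3.74% of all genes were lower relative to control. Egr1 was the member that was lower by over 1.5-fold in KD-2. These intervals, here and below, cover the counting of reads only.

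Egr2, known for its roles in hindbrain patterning and myelination, lies on chromosome 10 from 67534469 to 67542188 (plus strand). It had 126 control reads, 58 KD-1 reads and 126 KD-2 reads, or 0.566, 0.222 and 0.525 RPKM. The KD-1 library was low, and the other 2 were alike in read number. The log2 fold change was -1.34 in KD-1 (-1.82 to -0.89), or 2.53-fold lower, and -0.11 in KD-2 (-0.47 to 0.26). Of all genes, 0.660% were lower than Egr2 in KD-1 relative to control.

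Egr3, which is known from muscle spindles and lymphocytes, lies on chromosome 14 from 70077317 to 70082613 (plus strand). It had 108 control reads, 66 KD-1 reads and 195 KD-2 reads, or 0.377, 0.196 and 0.631 RPKM. The knockdown libraries lay on opposite sides of control. On the log2 scale, the fold change against control was -0.93 for KD-1 (-1.40 to -0.48) and 0.74 for KD-2 (0.40 to 1.10), past 1.5-fold in both, but both intervals reach inside 1.5-fold at this depth. Between the knockdowns, Egr3 was 3.20-fold higher in KD-2 than in KD-1, which no other member exceeded. The 3 EGR genes thus had 3 different patterns, with Egr1 lowest in KD-2, and Egr2 and Egr3 lowest in KD-1.

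The NR4A genes encode orphan nuclear receptors that act without a classical ligand, and they are regulated largely through their amount. Nr4a1 (NUR77), on chromosome 15 from 101253902 to 101274795 (plus strand), had 1019 control reads, 1369 KD-1 reads and 1999 KD-2 reads, or 5.44, 6.24 and 9.91 RPKM. Its log2 fold change was 0.20 for KD-1 (0.08 to 0.32) and 0.86 for KD-2 (0.76 to 0.98). Nr4a2 (NURR1), required for midbrain dopamine neurons, lies on chromosome 2 from 57106830 to 57124003 (minus strand). It had 224 control reads, 325 KD-1 reads and 490 KD-2 reads, or 0.856, 1.06 and 1.74 RPKM. Its log2 fold change was 0.31 for KD-1 (0.06 to 0.56) and 1.02 for KD-2 (0.79 to 1.26). Both NR4A genes were above control in both knockdown libraries, past 1.5-fold in KD-2, and were the members with positive log2 fold changes in KD-1.

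The IER genes are named for their early induction, and Ier2 and Ier5 belong to the same gene family, while Ier3 does not. Ier2, a nuclear protein, lies on chromosome 8 from 84661331 to 84662852 (minus strand). It had 2721 control reads, 3130 KD-1 reads and 3375 KD-2 reads, or 25.6, 25.1 and 29.5 RPKM. It differed little between the libraries, at -0.03 (-0.10 to 0.05) in the KD-1 library and 0.20 (0.13 to 0.28) in the KD-2 library on the log2 scale.

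Ier3, a survival factor known to prolong ERK activity, lies on chromosome 17 from 35821713 to 35822911 (plus strand). It had 1982 control reads, 1828 KD-1 reads and 3951 KD-2 reads, or 25.1, 19.7 and 46.4 RPKM. Against control, KD-1 stood at -0.35 (-0.44 to -0.25) and KD-2 at 0.89 (0.81 to 0.97) on the log2 scale. Ier5, a regulator of heat shock factor HSF1, lies on chromosome 1 from 155096367 to 155099636 (minus strand). It had 1364 control reads, 1434 KD-1 reads and 3083 KD-2 reads, or 5.96, 5.35 and 12.5 RPKM. On the log2 scale, the fold change against control was -0.16 for KD-1 (-0.26 to -0.05) and 1.07 for KD-2 (0.98 to 1.16), the highest of the 10 members in KD-2. For both genes the KD-2 library was high, and the KD-1 library lay somewhat below control.

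Dusp1 encodes a nuclear phosphatase (MKP-1) that switches off p38, JNK and ERK, and lies on chromosome 17 from 26505591 to 26508472 (minus strand). It had 2325 control reads, 2526 KD-1 reads and 3835 KD-2 reads, or 14.0, 13.0 and 21.5 RPKM. Against control, KD-1 stood at -0.11 (-0.19 to -0.03) and KD-2 at 0.61 (0.54 to 0.69) on the log2 scale, a 1.53-fold difference whose interval reaches below 1.5-fold. Zfp36 encodes tristetraprolin, which binds AU-rich elements, and lies on chromosome 7 from 28376784 to 28379228 (minus strand). It had 963 control reads, 901 KD-1 reads and 2140 KD-2 reads, or 3.97, 3.17 and 8.19 RPKM. On the log2 scale, the fold change against control was -0.32 for KD-1 (-0.46 to -0.19) and 1.04 for KD-2 (0.93 to 1.16). Zfp36, like Dusp1, was high in the KD-2 library and slightly below control in the KD-1 library.

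**Figure D2:**
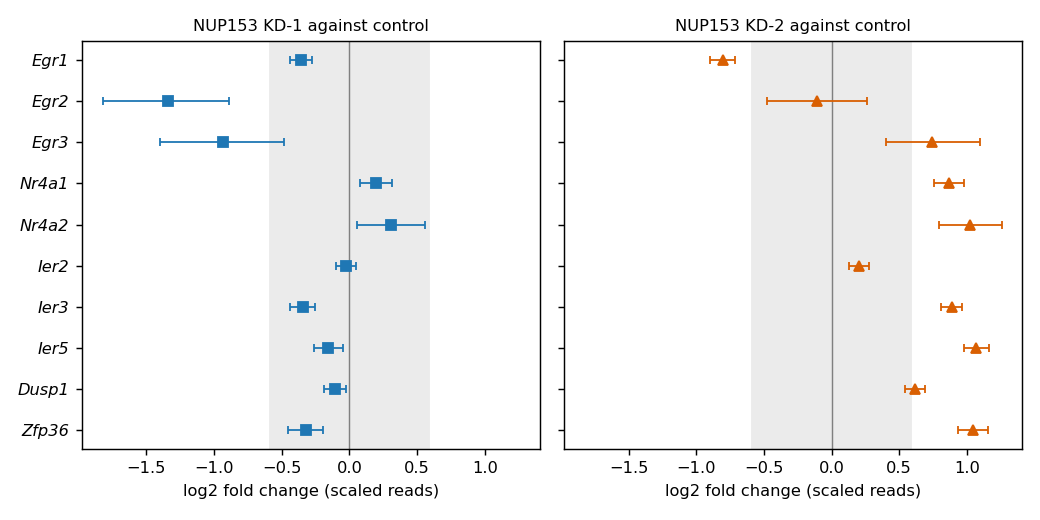
Log2 fold change of scaled reads of each immediate early gene in KD-1 (left) and KD-2 (right) against control, with bars for the exact 95% counting interval and the range within 1.5-fold shaded. In KD-1, Egr2 (-1.34) and Egr3 (-0.93) lie left of the shaded range, and in KD-2, 7 members lie right of it and Egr1 (-0.81) lies left.

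In KD-1, 2 of 10 members (Egr2 and Egr3) were lower by over 1.5-fold, against 5.62% of all genes, and 0 were higher, against 8.63%. The median log2 fold change was -0.24 for the members and 0.02 for all genes, and 2 members (20.0%) lay above 0, against 53.1% of all genes. In KD-2, 7 of 10 members (Egr3, Nr4a1, Nr4a2, Ier3, Ier5, Dusp1 and Zfp36) were higher by over 1.5-fold, against 17.1% of all genes, and 1 (Egr1) was lower, against 10.2%. The median was 0.80 for the members and -0.02 for all genes. With scaling by library totals, 23.6% of all genes were higher and 4.92% lower, and the members numbered 7 and 1 as before. For 5 of these 7 members (Nr4a1, Nr4a2, Ier3, Ier5 and Zfp36) the whole counting interval lay past 1.5-fold. The share of all genes that meet this stricter rule was not computed, and the rule depends on read depth.

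The knockdown libraries also differed from each other. In KD-2 relative to KD-1, 8 of 10 members were higher by over 1.5-fold, against 16.1% of all genes, and 0 were lower, against 13.9%. With scaling by library totals, the shares of all genes were 21.2% and 7.37%, with DESeq2's size factors 19.0% and 9.33%, and the members numbered 8 and 0 as before. The exceptions were Ier2, with a log2 fold change of 0.23, and Egr1, with -0.45. The median was 0.97 for the members and -0.12 for all genes. Zfp36 (1.37), Ier3 (1.23), Egr2 (1.23) and Ier5 (1.23) followed Egr3 (1.68). The 3 comparisons share libraries and are not independent of each other. The fibroblast markers differed in the same direction between these libraries, with 16 of 16 higher by over 1.5-fold in KD-2 than in KD-1, and their median was 1.62 on the log2 scale.

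**Figure D3:**
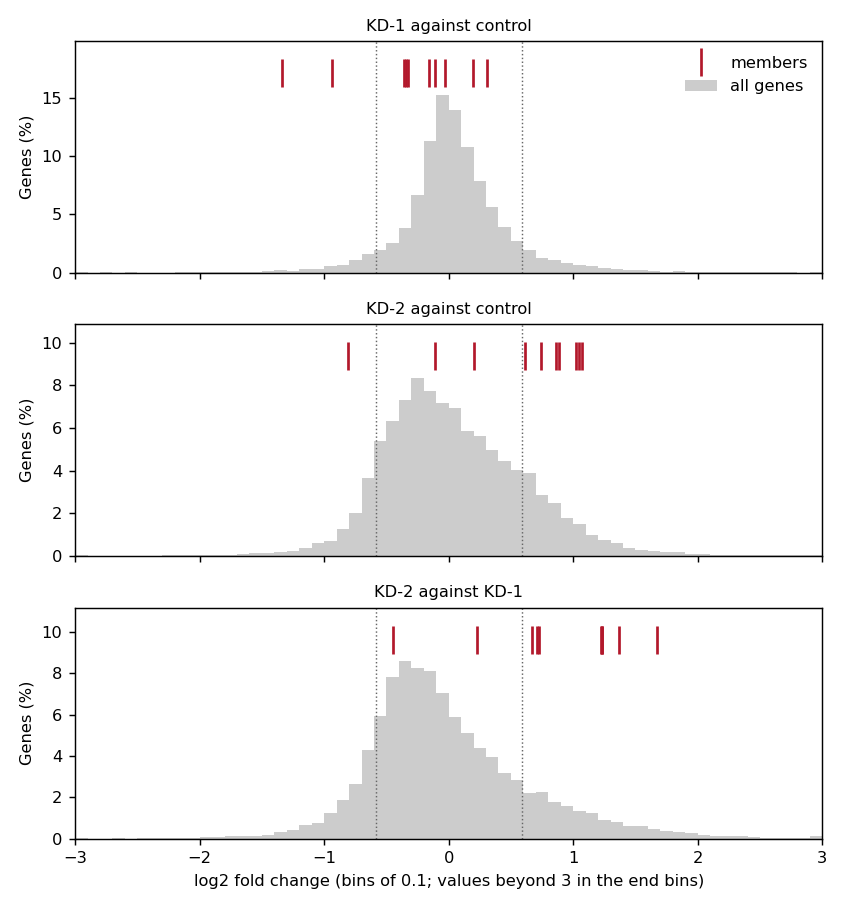
Distribution of log2 fold changes of 16670 genes (grey, percent of genes per bin) with the 10 members as red lines above it, for KD-1 against control, KD-2 against control and KD-2 against KD-1; dotted lines mark 1.5-fold. Most members lie slightly left of the middle in KD-1 (median -0.24) and right of the dotted line in KD-2 (median 0.80).

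With both knockdown libraries taken as a group against control, no member passed the test. The test was edgeR's quasi-likelihood test with Benjamini-Hochberg adjustment over 16670 genes, and its single residual degree of freedom comes from the knockdown libraries, which carry different shRNAs. Of all genes, 0.006% were called, which is 1 gene (Mir6236, adjusted p = 1.05e-05, with 1229 control reads, 24133 KD-1 reads and 1136 KD-2 reads, named after its values were seen), high in the KD-1 library alone. Of the members, 0 of 10 were called and 0 had an unadjusted p under 0.05, by this test and by the Wald test of DESeq2. Of all 16670 genes, 211 had an unadjusted p under 0.05 by edgeR's test and 80 by the Wald test. At such shares, 0 of 10 does not set the members apart. Egr1 had the smallest unadjusted p of the members, 0.175, with a log2 fold change of -0.56. For Egr3, Ier2, Ier3, Ier5, Dusp1 and Zfp36 the control library lay between the knockdown libraries. Egr1 was below control in both, as was Egr2 by upper-quartile scaling (in KD-2 it lay above, at 0.05, with library totals), and Nr4a1 and Nr4a2 were above it in both.

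Other genes of the pathway were taken as 5 lists, from receptors to targets. In the receptor to ERK cascade (28 genes), 1 gene was higher by over 1.5-fold in KD-1 (3.57%, against 8.63% of all genes) and 0 were lower (against 5.62%), and in KD-2, 4 were higher (14.3%, against 17.1% of all genes) and 2 lower (7.14%, against 10.2%). The medians of this list were 0.02 and -0.03, and its shares past 1.5-fold in KD-2 were no larger than those of all genes. The receptor Erbb3 had 2063 control reads, 4174 KD-1 reads and 2967 KD-2 reads, with log2 fold changes of 0.79 and 0.42, and so was highest in KD-1. The receptors Egfr (1179, 1225 and 2173 reads in control, KD-1 and KD-2) and Erbb2 (391, 461 and 662 reads) were high in KD-2, with log2 fold changes there of 0.77 and 0.65. Rps6ka4, a kinase downstream of ERK and p38 (MSK2), had 759, 917 and 1595 reads, and its KD-2 value was 0.96 on the log2 scale.

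None of the 14 SRF, ELK and CREB factors and coactivators passed 1.5-fold in either knockdown, against 8.63% of all genes higher and 5.62% lower in KD-1, and 17.1% and 10.2% in KD-2. The medians of their log2 fold changes were 0.24 and 0.15. In KD-2 relative to KD-1, 1 of them was higher and 2 were lower (7.14% and 14.3%, against 16.1% and 13.9%). Among 11 ERK feedback inhibitors, 1 was lower in KD-1 (Dusp5; 9.09%, against 5.62% of all genes) and 2 were higher in KD-2 (Dusp5 and Dusp7; 18.2%, against 17.1%), with medians of 0.12 and 0.23. The share in KD-2 was near that of all genes. Dusp5, a nuclear ERK phosphatase, had 199 control reads, 155 KD-1 reads and 391 KD-2 reads, with log2 fold changes of -0.59 and 0.87. Dusp7, a cytoplasmic one, had 357, 516 and 688 reads, with log2 fold changes of 0.30 and 0.84. The EGR corepressors Nab1 and Nab2 were high in the KD-2 library and near control in the KD-1 library. Nab1 had log2 fold changes of 0.05 and 0.65 in the order KD-1, KD-2 (1486, 1798 and 2504 reads), and Nab2 of 0.07 and 0.92 (1473, 1808 and 3001 reads).

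Of 33 other early response genes, a list that holds no AP-1 gene, 32 passed the filter on low counts. Egr4, the remaining EGR gene, did not, with 1 read in the control library, 5 in the KD-1 library and 0 in the KD-2 library. In KD-1, 1 of the 32 genes was higher by over 1.5-fold (3.12%, against 8.63% of all genes) and 2 were lower (6.25%, against 5.62%), with a median of 0.04. In KD-2, 15 were higher (46.9%, against 17.1%) and 0 were lower (against 10.2%), with a median of 0.56. Ier5l, a relative of Ier5, had 69 control reads, 90 KD-1 reads and 499 KD-2 reads, with log2 fold changes of 0.15 and 2.74. The growth arrest gene Gadd45g had 518, 385 and 1497 reads, with -0.66 and 1.42, and its relative Gadd45b had 1420, 1682 and 3546 reads, with 0.02 and 1.21. These 3 genes were high in the KD-2 library. Rhob, a short-lived small GTPase, had 214, 479 and 496 reads, with 0.93 and 1.10, and was higher than control in both knockdown libraries.

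How alike the members were was described by the distance between genes in the plane of both log2 fold changes, with each member set against 12742 other genes whose mean reached 100 reads. Both axes share the control library. Nr4a1 and Nr4a2 lay 0.19 apart, and Zfp36 lay 0.16 from Ier3 and 0.17 from Ier5. By distance, Nr4a1 was of rank 101 among the genes nearest to Nr4a2, and Nr4a2 of rank 216 for Nr4a1. Ier3 was of rank 74 for Zfp36, and Zfp36 of rank 114 for Ier3. For Egr1 the nearest member was Ier2, at a distance of 1.06 and rank 8037, so that no member was near it. The nearest genes to Egr1 were Srl (log2 fold changes of -0.36 and -0.81) and Rnf219 (-0.35 and -0.81). For Egr2 they were AA467197 (-1.41 and -0.09) and Tslp (-1.40 and -0.20), and for Dusp1 they were Lhx9 (-0.11 and 0.62) and Tmem259 (-0.11 and 0.63).

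The sequence features shown above did not enter the choice of the members. All 4 members with TATTTAT in the 3′ UTR (Nr4a2, Ier3, Dusp1 and Zfp36) were past 1.5-fold in the KD-2 library, where their log2 fold changes had a median of 0.95. Of the 6 members without it, 3 were higher and 1 (Egr1) was lower, with a median of 0.47. Of all genes, 17.1% were higher and 10.2% lower in KD-2, and the share among all genes with the heptamer was not computed. The log2 fold changes of both sets overlapped, from 0.61 to 1.04 with the heptamer and from -0.81 to 1.07 without it. In KD-1 the medians were -0.22 with and -0.26 without the heptamer. There, 0 of 4 and 2 of 6 members were lower by over 1.5-fold, against 5.62% of all genes. In KD-2 relative to KD-1 the medians were 0.98 and 0.95. Higher by over 1.5-fold were 4 of 4 and 4 of 6 members, against 16.1% of all genes. The medians of both sets thus differed in KD-2 against control and were close in the other comparisons. These are sets of 4 and 6 members, and the difference was not tested. The members with a CArG box, Egr2 and Zfp36, differed from each other in both knockdowns. The median RefSeq gene length was 3510 bases for the members and 21858 for 15883 genes, and Nr4a1 (20894 bases) and Nr4a2 (17174 bases) were the longest members.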

How the data were processed

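RNA-Seq was analysed from the read counts per gene that the authors deposited for 3 libraries, whole numbers without normalization. Per the methods and the labels, the authors trimmed reads with Trim Galore 0.4.1, mapped them with TopHat 2.1.1 to mm10 and counted them with featureCounts or HTSeq (the sources name both). The strand setting is not given in the sources used here, and no exon of a member overlaps another counted gene. The counts hold 0 spike-in genes and end in 5 summary lines, which were left out. Of mapped reads, 21.5% to 24.1% lay outside genes and 1.45% to 1.65% were ambiguous.

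Libraries were scaled by upper quartile (edgeR 4.0.16, R 4.3.3). For genes whose mean reached 10 reads, scaled reads plus a pseudocount of 0.5 gave log2 fold changes, called past 1.5-fold, with exact Clopper-Pearson counting intervals of 95%. Exon lengths were from GENCODE M21 (all exons of a gene) and gene positions from RefSeq, with lengths matched for 23376 genes by symbol and 651 by an older symbol. The quasi-likelihood test of edgeR set both knockdowns against control, with DESeq2 1.42.0 as an alternative. The fixed dispersion used by the authors, from spike-ins, was not used here. The edgeR test and the counting intervals were checked on simulated data, the test only with changes larger than those of the members against control.

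The members, the gene lists and the tests were chosen with earlier results of these data known. All members are named. From each other list, genes past 1.5-fold whose mean reached 100 reads were named, at most the 3 with the largest change in each knockdown. For Egr1, Egr2 and Dusp1, the 2 nearest genes are also named. Alternatives were TMM, DESeq2's size factors, library totals, a pseudocount of 5, no filter, a minimum mean of 100 reads, a fold change of 2, the Wald test and leaving out each knockdown library.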

Additional observations from a re-analysis of the deposited data

How the results depend on the processing

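The members past 1.5-fold numbered the same in each comparison under TMM, DESeq2's size factors, library totals, a pseudocount of 5, no filter and a minimum mean of 100 reads. With a fold change of 2, 1 member passed in KD-1, 3 in KD-2 (3 higher, 0 lower, so that Egr1 no longer passed) and 5 in KD-2 against KD-1. Of all genes, 2375 were past 1.5-fold in KD-1, and 5298 without a filter, 1028 at a minimum mean of 100 reads and 770 with a fold change of 2. In KD-2 these numbers were 4547, 7461, 2852 and 1212, and in KD-2 against KD-1 they were 5013, 8080, 3318 and 1839. With library totals the median log2 fold change of all genes in KD-2 moved from -0.02 to 0.14, that of Egr2 changed sign, from -0.11 to 0.05, and the split into higher and lower genes moved to 3942 higher and 820 lower in KD-2 (2847 and 1700 by upper quartile). In KD-2 against KD-1 it was 2691 and 2322 by upper quartile, 3172 and 1555 with DESeq2's size factors, and 3526 and 1229 with library totals. The group test called 0 genes with DESeq2's size factors or library totals, and 2 without a filter or by the Wald test, none of them a member. The single library per shRNA limits all values, and depth limits Egr2 and Egr3 most. Leaving out KD-2 leaves the KD-1 values, with no test, and turned the group's log2 fold change negative for Egr3, Ier2, Ier3, Ier5, Dusp1 and Zfp36. The exon length inside the RefSeq bounds moved the RPKM of 3 members (Egr1, Dusp1 and Zfp36) beyond their counting interval in control. No paired analysis was possible, because there was 1 control library and the numbers of the knockdown libraries are those of their shRNAs.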
